A study of Mus musculus with 7 samples.

Results

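The NRF2, KEAP1 and thioredoxin system was described here through 10 genes, chosen by name for their function: Nfe2l2, which encodes NRF2, its partner Mafg, its inhibitor Keap1, and 7 genes of thioredoxin, peroxiredoxin and quinone reduction (Txn1, Txnrd1, Srxn1, Prdx1, Prdx5, Prdx6 and Nqo1). All 10 were found among the 51789 genes of the deposited count table, and all 10 passed the filter on low counts. RNA was measured by 3′ tag sequencing of polyA RNA in 7 libraries of mouse granulocytes, all untreated, of which 4 were wild type (WT) and 3 knockout (KO) for Alox15. Alox15 encodes a lipoxygenase that adds oxygen to polyunsaturated fatty acids, and the series concerns ferroptosis, a cell death driven by lipid peroxidation, of neutrophils in tumours. The labels give neither strain, age, sex, organ nor sorting, and do not say which exons of Alox15 are lost. They also do not say whether replicates are separate animals, so a p-value here reflects only how much these libraries vary, and part of that variation may be technical.

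NRF2 is a transcription factor that KEAP1 holds for ubiquitination and degradation in resting cells. Oxidants and electrophiles modify cysteines of KEAP1, NRF2 then accumulates, pairs with a small MAF protein such as MAFG and binds antioxidant response elements near genes of thiol and quinone metabolism. Thioredoxin reductase uses NADPH to reduce thioredoxin, thioredoxin reduces the typical peroxiredoxins, and sulfiredoxin rescues peroxiredoxins that hydrogen peroxide has overoxidised. In neutrophils this system faces the oxidants of the phagocyte NADPH oxidase.

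The antioxidant response element is the sequence through which NRF2 acts, so promoter windows were searched for its core, TGACNNNGC, on both strands. The windows were those of RefSeq (GRCm38.p6), running from 250 bases before to 50 bases after each annotated start. They were matched for 9 of the 10 members, all but Prdx6, with 11 windows in all, 3 of them for Txnrd1. The core was found in 5 of the 11, and in 12.4% of all 32851 windows of the table. The 5 stretches are shown because they are the places in these windows where the letters occur. Each is written 5′ to 3′ on the strand of the gene, with the core in capitals. A core on the opposite strand appears as its reverse complement, beginning GC.
Nfe2l2 (chr2:75704885-75704913, minus strand): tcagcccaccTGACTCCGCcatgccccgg
Mafg (chr11:120633751-120633779, minus strand): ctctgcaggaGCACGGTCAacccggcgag
Txnrd1 (chr10:82859104-82859132, plus strand): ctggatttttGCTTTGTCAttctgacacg
Srxn1 (chr2:152105542-152105570, plus strand): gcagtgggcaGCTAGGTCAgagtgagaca
Prdx1 (chr4:116685456-116685484, plus strand): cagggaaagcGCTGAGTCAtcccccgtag
The cores began 240 bases before the start for Nfe2l2, 222 for Mafg, 92 for Txnrd1 and 133 for Prdx1, and 28 bases after it for Srxn1. The Prdx1 core overlaps the AP-1 motif TGANTCA, an overlap found in 0.454% of all windows. Srxn1 and Prdx1 each held 2 AP-1 motifs, against at least 1 in 7.81% of all windows. These are matches of letters and were not tested as binding sites.

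The libraries held about 3228300 to 5657200 counts. Alox15 had 0 counts in the 4 WT libraries and 1, 0 and 0 in KO 1, 2 and 3, so it does not check the genotype labels. Neutrophil markers were present in all libraries but at very unequal levels. The summed level of 16 mature neutrophil genes was 51422, 5108, 20005 and 20102 CPM (read counts scaled to library size with TMM factors) in WT 1 to 4 and 40430, 26144 and 3463 CPM in KO 1 to 3. WT 2 and KO 3 thus stood apart, with little neutrophil RNA. The 12 T cell markers summed to 507 to 1073 CPM in WT and 616 to 1483 CPM in KO, highest in KO 3. The 10 macrophage markers summed to 189 to 609 CPM in WT and 277 to 1399 CPM in KO, highest in KO 1, and all 10 were nominally higher in KO, 1 of them at an unadjusted edgeR p under 0.05. B cell markers summed to 120 to 461 CPM in WT and 225 to 354 CPM in KO, erythroid markers to 253 to 2011 and 629 to 2025 CPM, and stromal markers to 76.5 to 259 and 116 to 219 CPM. Of the 4 stromal genes tested, 3 were nominally higher in KO, and Col1a2 was nominally lower (log2 fold change -0.40). Sparc, at 8.54 to 27.9 CPM in WT and 28.8 to 37.7 CPM in KO, had an unadjusted edgeR p of 0.0311 and groups that did not overlap. Over all 12506 genes tested, 1.23% had an unadjusted edgeR p under 0.05 and 3.13% had groups that did not overlap. Eosinophil markers summed to at most 33.8 CPM, and their gene Epx had 0 counts in every library. Xist was high in KO 2 and KO 3 (382 and 102 CPM) and at 0.896 to 6.11 CPM in the other 5 libraries. The sex-linked gene Ddx3y stood at 119 CPM in KO 1 but at 0.306 and 0.195 CPM in KO 2 and KO 3. The KO libraries thus do not all come from the same animal. KO 2 and KO 3 also carried another description stem, so sex, stem and part of the genotype contrast cannot be told apart. The part of these differences in the results below was not tested. In bulk RNA, fewer cells of a type and less RNA per cell cannot be told apart.

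No member differed between Alox15 KO and WT beyond the spread between libraries. In edgeR's quasi-likelihood test, 0 of the 10 members passed an adjusted p of 0.05, as did 0 of all 12506 genes tested (0%). At an unadjusted edgeR p under 0.05 there were also 0 members, against 1.23% of all genes. The groups overlapped for every member, whereas they did not overlap for 3.13% of all genes tested. Of the members, 6 were nominally higher and 4 lower in KO, with a median log2 fold change of 0.08, against 0.01 over all genes tested. The adjusted p was 0.99995 for each member. The levels varied instead between libraries of the same genotype, as the following values by role show.

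**Figure D1:**
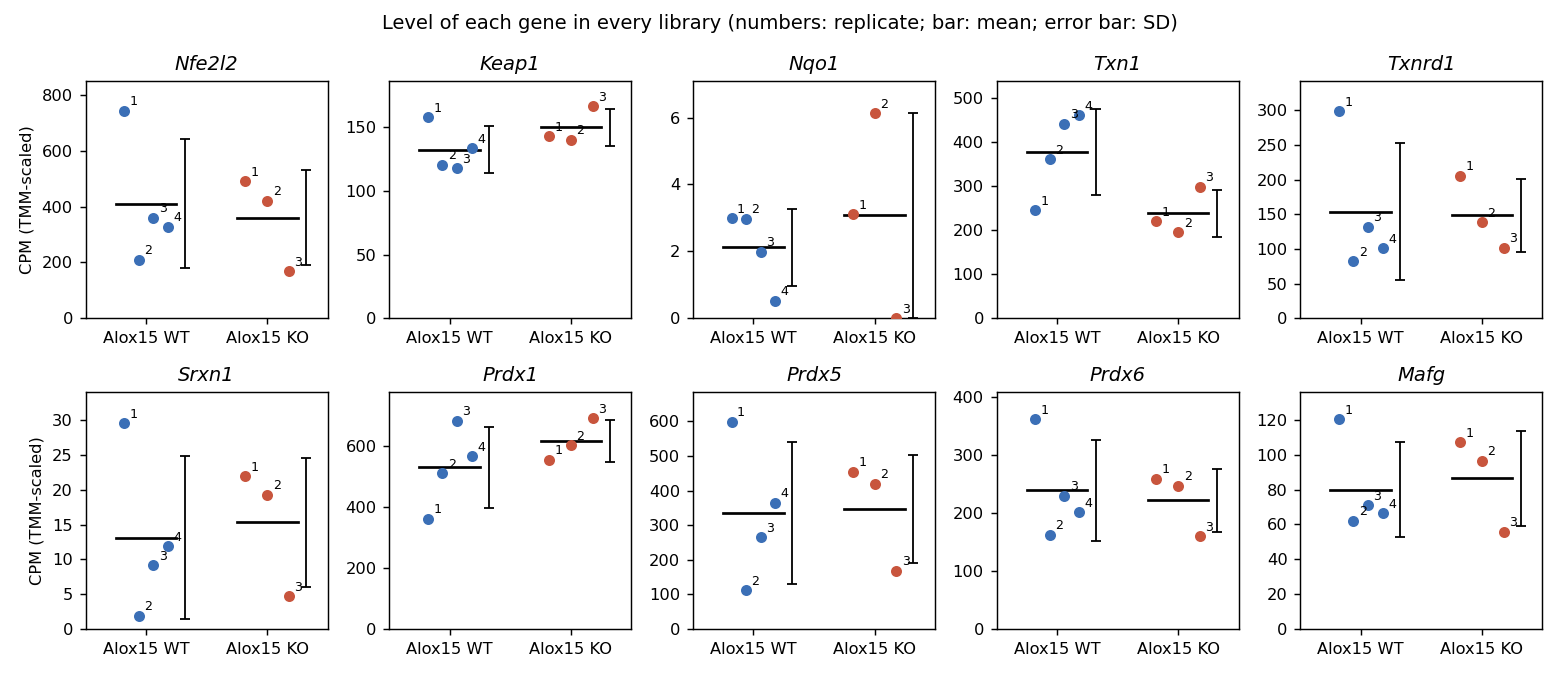
Level of each of the 10 genes in CPM (linear axis from 0) in the 4 Alox15 WT and 3 KO libraries. Points are libraries, labelled with the replicate number, the bar is the mean and the error bar the SD. WT and KO points overlap in every panel, and WT 1 is the highest library for 6 of the 10 genes.

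Of the regulators, Nfe2l2 (ENSMUSG00000015839, minus strand of chromosome 2, 75675513 to 75704641, GRCm38) stood at 745, 210, 361 and 328 CPM in WT 1 to 4 and at 491, 421 and 168 CPM in KO 1 to 3. WT 1 was the highest and KO 3 the lowest library, 4.44-fold apart, and the KO values lay within or below the WT range. KO minus WT, the log2 fold change was -0.19 ± 0.50 (SE), with a 95% interval of -1.30 to 0.92, which is 0.405-fold to 1.90-fold. Without WT 1 it was 0.23 and without KO 3 it was 0.10.

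Keap1 (ENSMUSG00000003308, minus strand of chromosome 9, 21229730 to 21239361), the adaptor that brings NRF2 to the CUL3 ubiquitin ligase, was the most even of the 10. It stood at 158, 121, 118 and 134 CPM in WT and 143, 140 and 167 CPM in KO, a span of 1.42-fold over the 7 libraries. Here KO 3 was the highest library, while it was the lowest for Nfe2l2. The log2 fold change of Keap1 was 0.18 ± 0.24 (SE), with a 95% interval of -0.36 to 0.72, so a KO level below 0.778-fold or above 1.65-fold of WT lay outside it. An antisense gene, Gm16754, overlaps 510 exonic bases of Keap1 and had 40 counts in all, against 4446 for Keap1. Because Keap1 was even, the ratio of Nfe2l2 to Keap1 CPM moved with Nfe2l2, from 4.71 in WT 1 to 1.74 in WT 2, and from 3.43 in KO 1 to 1.01 in KO 3. This ratio compares tags of different transcripts and is not a ratio of molecules.

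Mafg (ENSMUSG00000051510, minus strand of chromosome 11, 120625117 to 120633600), a small MAF protein that binds DNA with NRF2, stood at 120, 62.2, 71.1 and 66.5 CPM in WT and 107, 96.5 and 55.7 CPM in KO. WT 1, KO 1 and KO 2 were high and the other 4 libraries low, so that the groups interleaved. Mafg had a log2 fold change of 0.11 ± 0.34 (SE), with a 95% interval of -0.65 to 0.88, and of -0.073 without KO 1. Sirt7, on the same strand, shares 124 exonic bases with Mafg, within the last 500 bases of a Mafg transcript. Reads from these bases cannot be told apart by strand. Sirt7 stood at 35.4 to 115 CPM and, like Mafg, was highest in WT 1. WT 4 (93.2 CPM) was high for Sirt7 but not for Mafg. How many Mafg counts came from the shared bases was not tested.

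In the thioredoxin pair, Txn1 (ENSMUSG00000028367, minus strand of chromosome 4, 57943373 to 57956411), cytosolic thioredoxin, came closest to a difference. It stood at 246, 362, 442 and 461 CPM in WT 1 to 4, a mean of 378 ± 97.8 CPM (SD, n = 4). In KO 1 to 3 it stood at 221, 196 and 299 CPM, a mean of 239 ± 53.7 CPM (SD, n = 3). KO 1 and KO 2 lay below every WT library, and KO 3 lay above WT 1. The log2 fold change was -0.66 ± 0.32 (SE), with a 95% interval of -1.38 to 0.06, and the unadjusted edgeR p was 0.0672. The direction held in all 16 alternative settings, from -0.93 to -0.54, and no adjusted p was under 0.888. The unadjusted edgeR p was 0.0301 without WT 1, 0.0296 without KO 3 and 0.0417 without WT 2 and KO 3 together, and limma-voom with sample quality weights gave 0.00584. More genes had an unadjusted p under 0.05 in these settings than the 154 of 12506 in the main fit. In the order given they were 305 of 12238, 445 of 12965, 349 of 12356 and 534 of 12506 genes. The unadjusted edgeR p of Txn1 was 0.101 without WT 2, 0.152 without WT 3, 0.186 without WT 4, 0.155 without KO 1 and 0.198 without KO 2. In edgeR with the description stem as a covariate it was 0.174, and with the replicate block 0.175. Within the description stem that WT shares with KO 1 the log2 fold change was -0.77 ± 0.52 (SE), from 1 KO library, and the other stem held KO libraries only.

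Txnrd1 (ENSMUSG00000020250, plus strand of chromosome 10, 82833951 to 82897712), the selenoenzyme that reduces thioredoxin, did not run alongside Txn1. It stood at 299, 82.5, 132 and 101 CPM in WT and 205, 138 and 101 CPM in KO. WT 1 was the highest library for Txnrd1 and the third lowest for Txn1. The log2 fold change of Txnrd1 was -0.05 ± 0.46 (SE), with a 95% interval of -1.09 to 0.99. Its sign turned without WT 1 (0.48) and without KO 3 (0.11).

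Of the peroxiredoxins, Prdx1 (ENSMUSG00000028691, plus strand of chromosome 4, 116685544 to 116700822), a typical peroxiredoxin that thioredoxin recycles, stood at 361, 510, 682 and 565 CPM in WT and 555, 602 and 690 CPM in KO. WT 1 was the lowest library here, and KO 3 the highest. Prdx1 had a log2 fold change of 0.22 ± 0.31 (SE), with a 95% interval of -0.47 to 0.91. Processed pseudogenes that match at least 97.4% of the last 500 bases of a Prdx1 transcript, Gm21399 and Gm7204, had 0 counts in all libraries, so the table assigns them no reads. A Sec23b transcript shares 101 bases with Prdx1 at 95.05% identity, and Sec23b had 979 counts against 18400 for Prdx1.

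Prdx5 (ENSMUSG00000024953, minus strand of chromosome 19, 6906697 to 6910106), an atypical peroxiredoxin of mitochondria, peroxisomes and cytosol, stood at 599, 111, 266 and 365 CPM in WT and 455, 419 and 168 CPM in KO. It spanned 5.38-fold, with WT 1 high and WT 2 and KO 3 low in their groups. Between genotypes the log2 fold change was 0.05 ± 0.55 (SE), with a 95% interval of -1.18 to 1.28. It was below 0 without WT 2 (-0.24), KO 1 (-0.19), KO 2 (-0.11) or WT 3 (-0.046). Trmt112, on the opposite strand, shares 409 exonic bases with Prdx5. Without a stated strand setting, reads from those shared bases cannot be told apart. The last 500 bases of the Prdx5 transcripts, at the end that 3′ tags come from, had no Trmt112 match of at least 100 bases at 95% identity. How many reads came from the shared bases was not tested. Trmt112 stood at 294 CPM in KO 3 and 217 CPM in WT 1, another order than that of Prdx5.

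Prdx6 (ENSMUSG00000026701, minus strand of chromosome 1, 161240112 to 161251219), a peroxiredoxin that uses glutathione and also reduces phospholipid hydroperoxides, stood at 361, 162, 230 and 201 CPM in WT and 259, 247 and 160 CPM in KO. The 2 lowest libraries were again KO 3 and WT 2. Prdx6 had a log2 fold change of -0.11 ± 0.34 (SE), with a 95% interval of -0.87 to 0.66. It was 0.14 without WT 1 and 0.029 without KO 3. Its copy Prdx6b had 5 counts, all in WT 1, and the pseudogene Prdx6-ps2 had 0.

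Srxn1 (ENSMUSG00000032802, plus strand of chromosome 2, 152105516 to 152111376), sulfiredoxin, had the widest span among the members with counts in every library. It stood at 29.6, 1.88, 9.14 and 11.9 CPM in WT and 22.0, 19.3 and 4.67 CPM in KO, or 15.7-fold from WT 2 to WT 1. The exact 95% counting intervals of 24.0 to 36.0 CPM in WT 1 and 0.971 to 3.28 CPM in WT 2 do not meet, so this spread within WT is larger than counting error. Srxn1 had a log2 fold change of 0.23 ± 0.82 (SE), with a 95% interval of -1.63 to 2.09, that is 0.324-fold to 4.26-fold. It was -0.14 without WT 2 and -0.13 without KO 1.

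Nqo1 (ENSMUSG00000003849, minus strand of chromosome 8, 107388225 to 107403206), the quinone reductase that is often read as a marker of NRF2 activity, was near the limit of detection. Its counts were 10, 19, 10 and 2 in WT and 16, 20 and 0 in KO, or 2.99, 2.98, 1.99 and 0.530 CPM and 3.11, 6.13 and 0 CPM. A count of 0 in KO 3 leaves room for 0.584 CPM, the level of 3 counts there. KO 2 was the highest library and KO 3 the lowest, so the KO libraries enclosed all WT values. For Nqo1 the log2 fold change was 0.51 ± 1.28 (SE), and without KO 2 it was -0.45. Its 95% interval of -2.35 to 3.37, or 0.196-fold to 10.3-fold, was the widest of the 10. The exact 95% counting intervals of Nqo1 in KO 2 (3.74 to 9.46 CPM) and KO 3 (0 to 0.718 CPM) do not meet, so the KO libraries also differed by more than counting error. Counting intervals cover counting error only, since the labels name no molecular identifiers and reads are then not independent molecules.

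**Figure D2:**
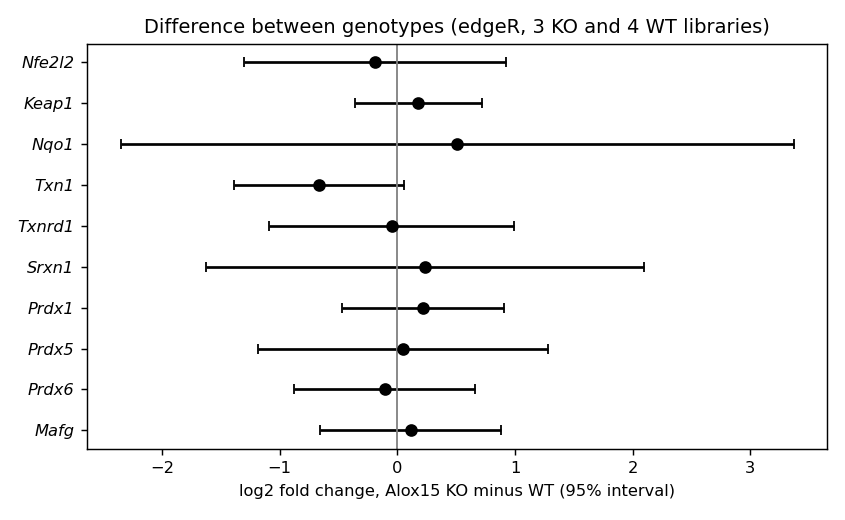
Log2 fold change of each gene, Alox15 KO minus WT, from edgeR (3 KO and 4 WT libraries). Points are estimates and bars 95% intervals. Every interval includes 0; Keap1 has the narrowest (-0.36 to 0.72), Nqo1 the widest (-2.35 to 3.37), and Txn1 (-1.38 to 0.06) lies almost wholly below 0.

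Members differed in how they followed the neutrophil content of the libraries. By the mean log2 CPM of the 16 mature neutrophil genes, the libraries ran from WT 1 (10.1) through KO 1 (9.73), KO 2 (9.36), WT 3 (8.70) and WT 4 (8.55) down to WT 2 (6.83) and KO 3 (6.19). Nfe2l2, Prdx6 and Mafg put the 7 libraries in exactly this order, which 1.34% of all genes tested did. WT 2 and KO 3 were the 2 lowest libraries for 5 of the 10 members (Nfe2l2, Mafg, Prdx5, Prdx6 and Srxn1), against 16.1% of all genes tested, for all 16 of the neutrophil genes and for none of the 10 tested T cell markers. They were the 2 highest libraries for none of the members, against 6.25% of all genes. Keap1, Txn1 and Prdx1 did not follow the score from high to low. Txn1 was highest in WT 4 and WT 3 and lowest in KO 2, KO 1 and WT 1 (196, 221 and 246 CPM). KO 2, KO 1 and WT 1 were the libraries with the highest scores, so Txn1 was lowest where the score was highest. Prdx1 and Keap1 were highest in KO 3. These orders were read after the values were seen and are a description, with no test.

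**Figure D3:**
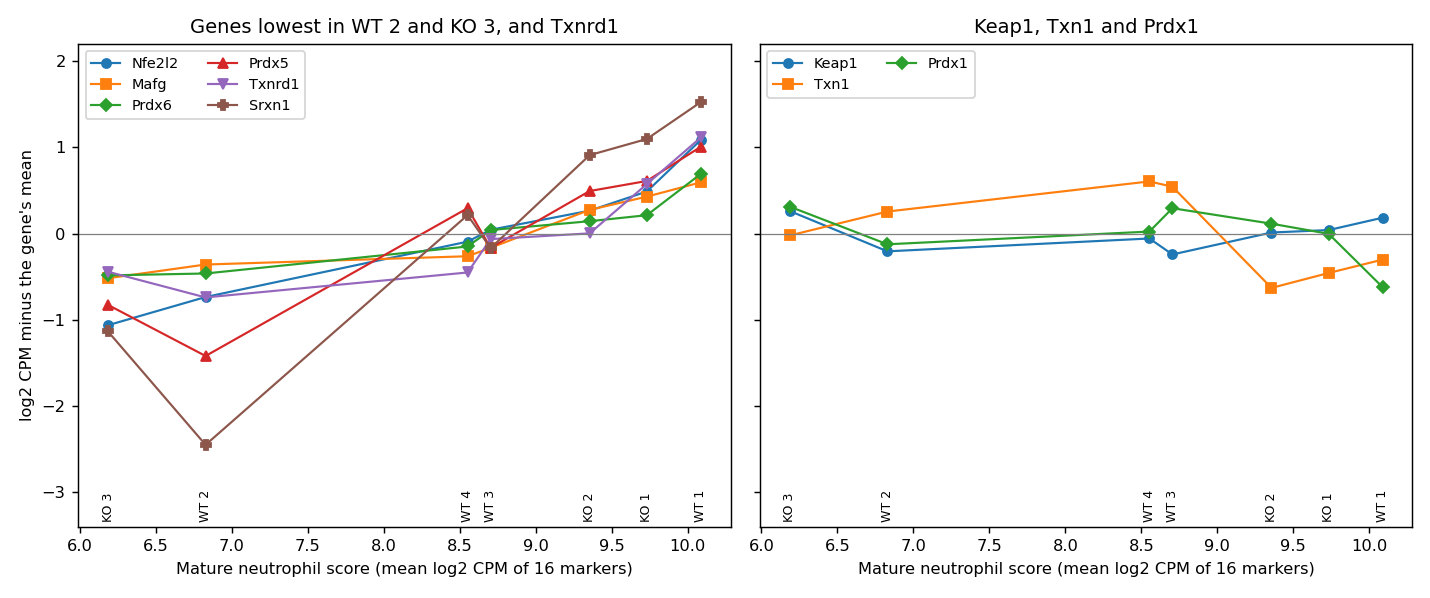
Log2 CPM of 9 genes, each minus its mean over the 7 libraries, against the mature neutrophil score of the library (mean log2 CPM of 16 markers). Each point is 1 library and lines join the points of a gene; Nqo1 is left out because KO 3 had 0 counts. Left are the 6 genes that are highest in WT 1, with Srxn1 the widest (1.88 CPM in WT 2, 29.6 CPM in WT 1). Right are Keap1, Txn1 and Prdx1, which are not highest in WT 1. Txn1 is lowest in KO 2, KO 1 and WT 1, the libraries with the highest scores.

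With the neutrophil score as a covariate in edgeR, the standard errors of all 10 members became smaller, also those of Keap1 (0.24 to 0.22), Prdx1 (0.31 to 0.25) and Nqo1 (1.28 to 1.18), and no member was called. For Nfe2l2 the log2 fold change was -0.13 ± 0.23 (SE) in place of -0.19 ± 0.50. For Prdx5 it was 0.21 ± 0.26 in place of 0.05 ± 0.55, and for Srxn1 it was 0.52 ± 0.46 in place of 0.23 ± 0.82. Txn1 kept its value, at -0.69 ± 0.25 (SE), with an unadjusted edgeR p of 0.0170 and an adjusted p of 0.9997. With this covariate 396 of 12506 genes had an unadjusted edgeR p under 0.05, against 154 in the main fit. Without WT 2 and KO 3 the log2 fold changes of the 10 members ran from -0.93 for Txn1 to 1.27 for Nqo1, again with none called.

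The genes whose pattern was most like that of a member were sought for the 4 members that span more than 2 on the log2 scale, by the root mean square difference of centred log2 CPM over the 7 libraries. For Nfe2l2, Nabp1, a single-stranded DNA-binding protein, had a difference of 0.13. Nabp1 stood at 111 CPM in WT 1, 42.3 CPM in WT 2 and 27.1 CPM in KO 3. For Prdx5 they were Slc29a3, a lysosomal nucleoside transporter, with 0.12, and Mboat7, a lysophospholipid acyltransferase, with 0.15. For Srxn1 they were B3gnt8, a glycosyltransferase, with 0.21, and Rnh1, the ribonuclease inhibitor, with 0.21. For Nqo1 the nearest, Gltp and Ncstn, were farther, with 0.45 and 0.48, and rest on the few counts of Nqo1.

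Other genes of the pathway, from lists chosen by function, showed no difference that passed the test. In the main fit none of the tested genes of these lists reached an unadjusted edgeR p under 0.05. DESeq2 called 0 of these genes and 1 gene over all. Of 18 other regulators and partners of NRF2, 17 were tested, and 0 passed in either direction. In this list 11 were nominally higher and 6 lower in KO, with a median log2 fold change of 0.03. The smallest unadjusted edgeR p, 0.0686, was that of Btrc, a ubiquitin ligase subunit that can target NRF2, at 6.11 to 10.3 CPM in WT and 10.1 to 18.7 CPM in KO (log2 fold change 0.93 ± 0.45, SE). Mafk, another small MAF, had -0.64 ± 0.45, the antibody receptor and ubiquitin ligase Trim21 had 0.62 ± 0.68, and the ligase RING subunit Rbx1 had -0.19 ± 0.30. Bach1, a repressor that competes with NRF2 for its sites and was singled out after its values were seen, stood at 119, 29.0, 70.9 and 62.2 CPM in WT and 78.3 and 103 CPM in KO 1 and KO 2. Its counts were 398 in WT 1 and 82 in KO 3. Like Nfe2l2, Bach1 was highest in WT 1 and lowest in KO 3. WT 2 and KO 3 were the 2 lowest libraries for 7 of the 17 (41.2%, against 16.1% of all genes tested). They were the 2 highest for 1, Dpp3 (5.88%, against 6.25%).

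Of 38 other genes known as NRF2 targets, 31 were tested and 0 passed. Here 10 were nominally higher and 21 lower, with a median log2 fold change of -0.09. Of the 7 not tested, Gsta3, Gstp2 and Gpx2 had 0 counts in all libraries. Smallest in unadjusted p were Esd, which hydrolyses S-formylglutathione (log2 fold change 0.46 ± 0.31, SE), the pentose phosphate enzyme Tkt (0.37 ± 0.26), Gclm, a subunit of glutathione synthesis (-0.40 ± 0.34), and the transporter Abcc4 (0.53 ± 0.48). Osgin1, an oxidative stress gene singled out after its values were seen, ranged widely within WT, at 187, 4.70, 58.2 and 46.9 CPM, and stood at 65.7, 29.1 and 7.21 CPM in KO. Its lowest library in each group was again WT 2 and KO 3. Those libraries were the 2 lowest for 9 of the 31 (29.0%, against 16.1% of all genes tested). They were the 2 highest for 2, Mgst2 and Ptgr1 (6.45%, against 6.25%).

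Of 29 other genes of thioredoxin, peroxiredoxin, methionine sulfoxide reductase, glutaredoxin and superoxide dismutase families, 27 were tested and 0 passed. Here 17 were nominally higher and 10 lower, with a median log2 fold change of 0.09. The 4 with the smallest unadjusted p were Prdx3, the mitochondrial peroxiredoxin (-0.67 ± 0.48, SE), Txnl1, a thioredoxin-like protein (0.41 ± 0.29), Txnip, which binds and inhibits thioredoxin (-0.79 ± 0.65), and Map3k5, the kinase ASK1 that reduced thioredoxin holds inactive (0.59 ± 0.52). Txnip stood at 271, 245, 668 and 399 CPM in WT and 326, 315 and 44.2 CPM in KO. KO 3 alone lay below the WT range for Txnip, and without KO 3 the log2 fold change was -0.36. With the neutrophil score as a covariate that of Txnip was -1.19, with an unadjusted edgeR p of 0.0312. For Map3k5 it was 0.20 without KO 2 and 1.04 without WT 1, the latter with an unadjusted edgeR p of 0.0429. Limma-voom with sample quality weights gave Map3k5 an unadjusted p of 0.0201. No adjusted p of these 2 genes was under 0.888. WT 2 and KO 3 were the 2 lowest libraries for 5 of the 27 (18.5%), near the 16.1% of all genes tested. They were the 2 highest for 4 of the 27 (Prdx4, Sesn3, Nxn and Glrx5), or 14.8%, against 6.25% of all genes.

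**Figure D4:**
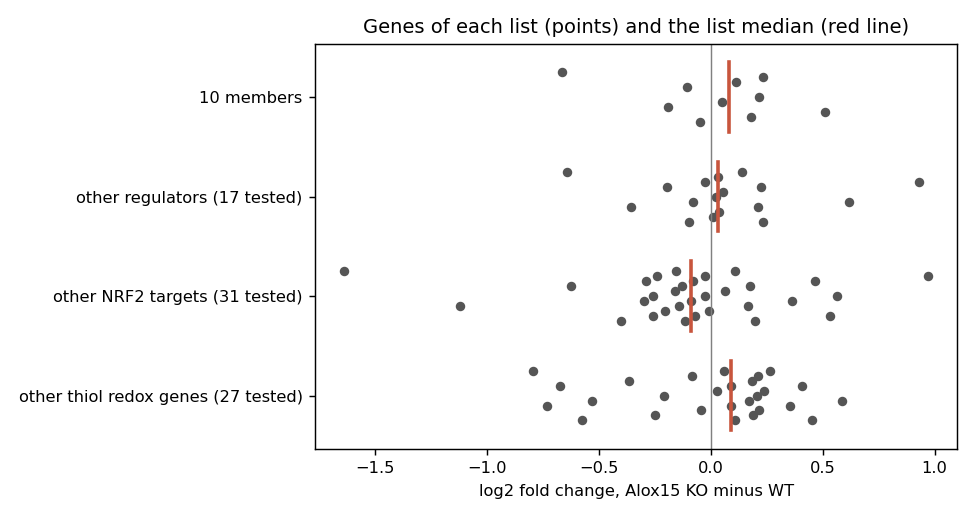
Log2 fold change, Alox15 KO minus WT, of each tested gene (points, spread vertically for legibility) in the 10 members, 17 other regulators, 31 other NRF2 targets and 27 other thiol redox genes. Red lines are list medians (0.08, 0.03, -0.09 and 0.09); none of the points passed the test.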

How the data were processed

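The authors deposited 1 table of whole-number counts per Ensembl gene for the 7 libraries. The submitters' processing notes name the tools RSEM 1.2.3 and DESeq2 and the build mm10 without their roles, so the deposited counts may be rounded estimates. Which annotation and strand setting the counting used is not given in the sources used here. Per the labels' protocols, RNA was column-purified and DNase-treated and libraries were made with a QuantSeq kit. Symbols, coordinates and overlaps came from GENCODE M21 (GRCm38, the same build as mm10), and 51596 of 51789 genes matched. Near-identical copies were sought with blastn (at least 95% identity over 100 bases).

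Groups came from the labels. KO was compared with WT in edgeR 4.0.16 (R 4.3.3) with filterByExpr, TMM scaling, robust quasi-likelihood testing, and p-values were adjusted by Benjamini-Hochberg over 12506 genes. CPM values use the TMM library sizes, and log2 CPM a prior count of 2. An SE is the log2 fold change divided by the root of F. The members, lists and alternatives were chosen with earlier results of these data known. The named genes were the members, the 4 tested genes of each list with the smallest p, and the 2 most similar genes (mean log2 CPM of at least 3) of each member spanning more than 2 on the log2 scale. The rule also allowed up to 2 genes of each marker list. One gene that the rule names is not reported here. Alternatives were DESeq2 1.42.0, limma-voom 3.58.1 with sample quality weights, RLE factors, no filter, 5 CPM in 3 libraries, libraries left out, the replicate block, the description stem and the neutrophil score. On simulated counts for 12506 genes, the KO against WT test found 0.667% of 2-fold changes, 42% of 4-fold changes and 77.3% of 8-fold changes. Changes were put only into genes above a minimum level, which Nqo1 does not reach. Each gene was drawn independently, without the neutrophil and sex differences between these libraries, so recovery in the real data may differ.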

Additional observations from a re-analysis of the deposited data

Results flagged for a closer look

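Gclm, the modifier subunit of glutamate-cysteine ligase, stood at 27.4 CPM in WT 3, far from the other WT libraries at 46.3, 44.0 and 43.2 CPM. In the KO libraries it stood at 32.7, 38.3 and 20.4 CPM. Gclm was 1 of 22 named genes checked for a WT library far from the others, and chance gives such a gap in about 1 of 20 groups.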

How the results depend on the processing

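None of the 10 members or of the 3 lists was called in any of the 16 alternative settings, where the smallest adjusted p of a named gene was 0.888 (limma-voom with sample quality weights). Nqo1 was tested in 15 of them, since it did not pass the filter of 5 CPM in 3 libraries. Over all genes, DESeq2 called 1 gene, the pseudogene Impdh2-ps, and the other settings 0. Of the 22 genes compared, 14 kept their sign in every setting, among them Keap1, Txn1 and Prdx1; for the other genes the cause was not tested. With 1 library left out, the log2 fold change ran from -0.48 to 0.23 for Nfe2l2, from -0.45 to 1.04 for Nqo1, from -0.36 to 0.48 for Txnrd1, from -0.14 to 0.97 for Srxn1, from -0.24 to 0.46 for Prdx5, from -0.25 to 0.14 for Prdx6 and from -0.073 to 0.35 for Mafg. Limma-voom with these weights turned Nfe2l2 to 0.18, Txnrd1 to 0.27 and Prdx6 to 0.12. The description stem as a covariate turned Nfe2l2 to 0.26, Txnrd1 to 0.42, Prdx6 to 0.12 and Rbx1 to 0.10. The neutrophil score turned Nqo1 to -0.073 and Txnrd1 to 0.11. The replicate block turned Nqo1 to -0.64 and called 0 genes. Deviations of same-numbered libraries correlated at 0.349, -0.225 and -0.184. WT 1 correlated best with KO 1, its own number, but WT 2 correlated best with KO 3. No pairing by number was thus clear. WT 2 and KO 3 were also the libraries with little neutrophil RNA, so these correlations cannot exclude a pairing. Low recovery of 2-fold changes limits what could be called.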

Other observations

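The ratio of Txnip to Txn1 CPM, inhibitor to thioredoxin, was 0.675 to 1.60 in 6 libraries and 0.148 in KO 3. The ratio of Nfe2l2 to its competitor Bach1 was 4.10 to 7.26 in 6 libraries and 10.5 in KO 3. Msrb1, a selenoprotein that reduces methionine sulfoxide, stood at 501 CPM in WT 1 and 68.2 CPM in KO 3, while Prdx4, the peroxiredoxin of the endoplasmic reticulum, stood at 38.2 CPM in WT 1 and 105 CPM in KO 3. The cytosolic superoxide dismutase Sod1 stood at 434 CPM in KO 3 and at 197 to 320 CPM in the other libraries. These genes were singled out after their values were seen and were not tested between libraries.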
